A study of Mus musculus with 287 samples.

Results

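The genes described here are 8 markers of the choroid plexus and of the cortical hem: Ttr, Kcne2, Folr1, Otx2, Wnt8b, Wnt2b, Wnt3a and Lmx1a. They were taken by symbol from a table of exon counts per cell, in which each of the 8 symbols matched 1 of 55359 gene IDs. They were followed over all clone-labelled single cells of the series except 37 that had an exon count in fewer than 1000 genes. The cells came from mouse cerebral organoids, tissue grown in culture from mouse embryonic stem cells. All cells carried the genotype MADM-11GT/TG;Emx1-CreER+/-, and the series holds no second genotype and no untreated group. MADM (mosaic analysis with double markers) turns on green or red fluorescence when a chromosome pair recombines. Here that recombination was driven by a Cre recombinase under Emx1, a gene of the dorsal telencephalon, and switched on with 60 nM 4-hydroxytamoxifen on day 13. The organoids had been kept until day 5 in a medium with 3 µM of the Wnt inhibitor IWR1, and were collected on day 20. Fluorescent cells of a clone were drawn singly into a glass pipette and sequenced with SMART-Seq v3. The labels give each cell a clone, a clone type (SN or N, not spelled out in the labels), a colour and a plate. They name no organoid, so several clones can come from 1 organoid, and p-values speak only of the spread among these clones.

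The choroid plexus is the secretory epithelium of the brain ventricles, which makes the cerebrospinal fluid. It arises at the edge of the dorsal telencephalon next to the cortical hem, a signalling centre that releases Wnt and BMP ligands and patterns the neighbouring cortex. Ttr encodes transthyretin, the carrier of thyroid hormone and of retinol-binding protein, and is the classic abundant transcript of choroid plexus epithelium, although liver and visceral endoderm make it as well. Kcne2 encodes a potassium channel subunit of that epithelium, Folr1 a folate receptor that carries folate into the fluid, and Otx2 a homeodomain factor needed to form and maintain the choroid plexus. Wnt2b, Wnt3a and Wnt8b encode ligands made in the hem, and Lmx1a encodes a LIM homeodomain factor of the hem and of roof plate derivatives.

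The kept cells numbered 90 on plate 1 (49 from SN clones, 41 from N clones), 80 on plate 2 (42 and 38) and 77 on plate 3 (40 and 37). Total exon counts ran from 6171 to 13040432 per cell (median 1517431). Since the sources used here do not say whether molecular identifiers were used, the counts were treated as reads, and intervals on shares of cells (95% Wilson) cover counting error only. A gene is called counted in a cell where it has at least 1 exon count. The neuronal gene Stmn2 was counted in 96.8% of these cells, the radial glia gene Fabp7 in 95.5% and the telencephalic gene Lhx2 in 78.5%. Of the 68 clones, 62 had at least 2 kept cells: 42 SN clones and 20 N clones.

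Ttr, Otx2 and Lmx1a were each counted in many cells, and the other 5 genes in few. Ttr had an exon count in 68 cells (27.5%, interval 22.3 to 33.4%). Otx2 followed with 52 cells (21.1%, 16.4 to 26.6%) and Lmx1a with 49 (19.8%, 15.3 to 25.3%), and the 3 intervals overlap. Wnt2b was counted in 21 cells (8.50%), Wnt8b in 14 (5.67%), Kcne2 in 10 (4.05%) and Folr1 in 9 (3.64%). Wnt3a was counted in 2 cells (0.81%). These shares also depend on transcript length and on depth, so their order is no order of expression. At least 1 of the 8 genes was counted in 50.6% of cells. Every cell was also thinned at random to 100000 exon counts, which left out 22 shallower cells (10 SN, 12 N). Ttr was then counted in 21.3% of the cells left, Otx2 in 14.2% and Lmx1a in 11.6%.

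Ttr reached high levels in the cells that had it. Among the 68 cells its level ran from 0.229 to 3383 CPM (counts scaled to a total of 1000000 exon counts per cell), with a median of 176.1 CPM. It stood at 100 CPM or more in 40 cells of 18 clones and at 1000 CPM or more in 7 cells, both limits being set after the values were seen. At the low end, 9 cells had only 1 to 3 Ttr counts. Intron counts, from reads that fall in introns, were also present for Ttr in 34 of the 40 cells at 100 CPM or more and in 9 of the 28 cells below.

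Cells with Ttr came from a minority of clones. Of the 62 clones with at least 2 kept cells, 35 had no Ttr count, 9 had it in 1 cell and 18 in at least 2 cells. Those 18 clones held 58 of the 68 cells. In 8 clones (5 SN, 3 N) every kept cell had a Ttr count, 29 cells in all. Clone 17, an N clone on plate 1, had Ttr in all 9 of its cells, from 14.6 to 3383 CPM with a median of 994 CPM. Its lowest cell thus lay far below the other 8, which started at 207.6 CPM. Clone 24, an N clone on plate 2, had Ttr in all 5 cells, at 84.02, 307, 657, 701 and 1026 CPM. Clone 25, an N clone of 2 kept cells on the same plate, had 853 and 866 CPM. Over all cells of a clone, it had the most Ttr per total exon count (859 CPM), ahead of clone 17 (789.8 CPM). Among SN clones, clone 29 had 224.2, 528 and 730 CPM, clone 38 had 366 and 514 CPM, and clone 37 had 0.651, 198.1 and 1228 CPM. The ranges of clones 17, 24, 29 and 37 overlap, so these clones have no order beyond the spread of their cells. Clones 18 and 27 completed the 8, with Ttr in 3 cells of 6.20 to 124.5 CPM and in 2 cells of 0.899 and 70.4 CPM.

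**Figure D1:**
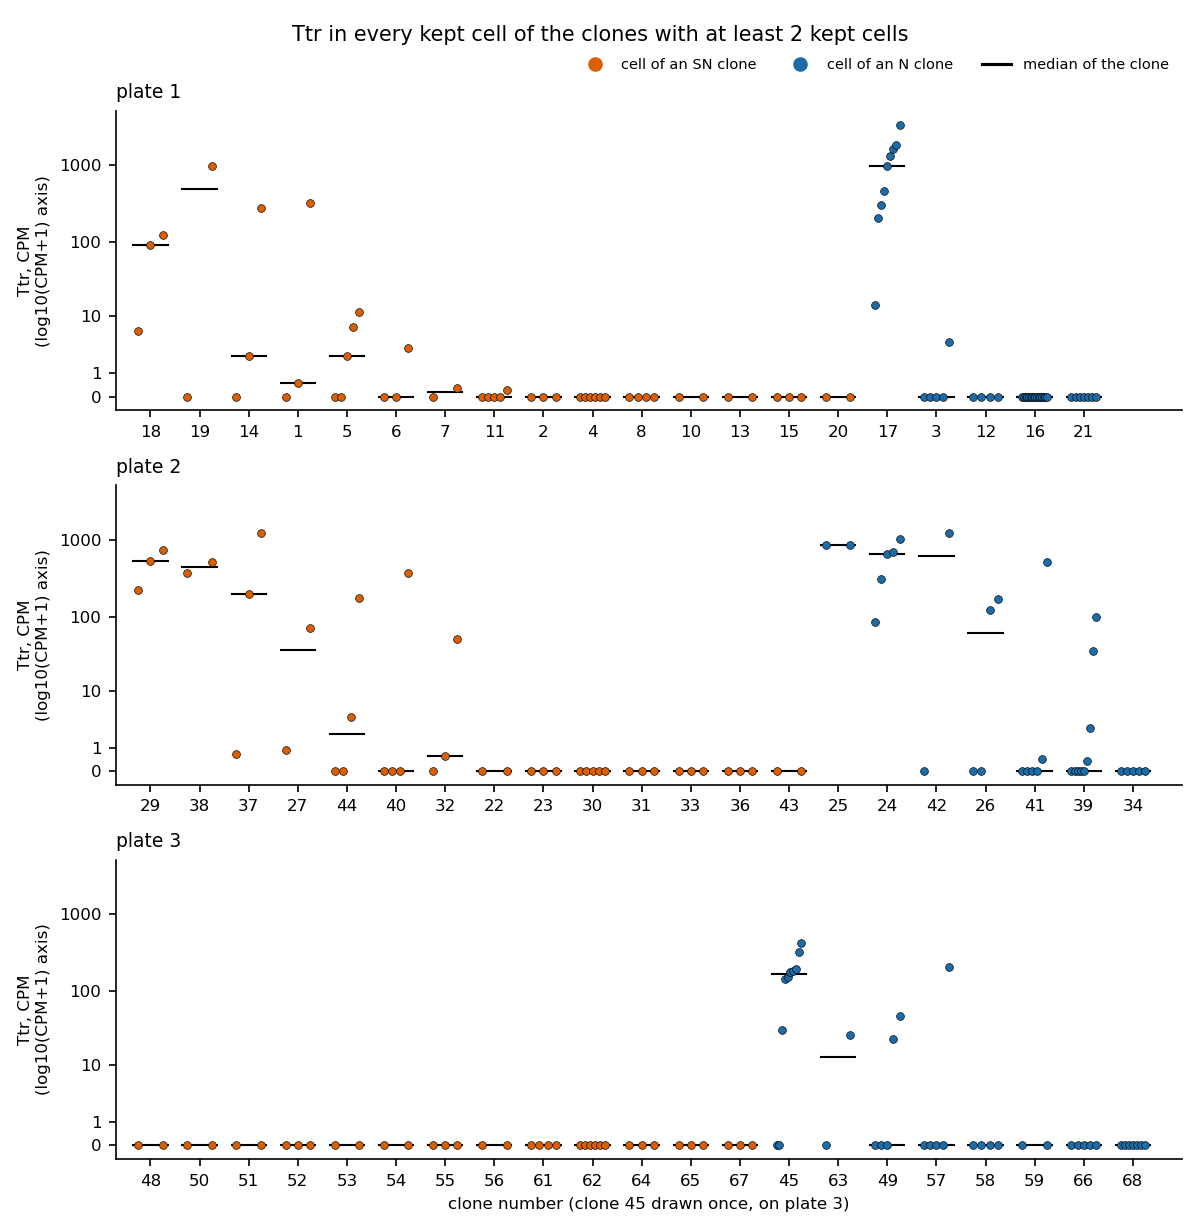
Ttr level of every kept cell (points, CPM on a log10(CPM+1) axis) in the 62 clones with at least 2 kept cells, by plate, with SN clones in orange, N clones in blue and the median of the clone as a line. Clone 17 lies at 14.6 to 3383 CPM in all 9 cells, while 35 clones lie at 0 and no SN clone of plate 3 has an exon count.

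Other clones were mixed. Clone 45, an N clone with cells on 2 plates, had Ttr in 8 of 10 cells. Its 3 cells on plate 2 had 153.3 to 422 CPM, and 5 of its 7 cells on plate 3 had Ttr, up to 326 CPM. Clone 39, an N clone of 9 kept cells, had Ttr in 4 cells, at 0.353, 2.61, 34.8 and 99.9 CPM, and none in the other 5. In clones 19 and 42, both of 2 kept cells, 1 cell had 994 and 1223 CPM and the other had no count. Cells with much Ttr and cells without any therefore sat side by side in 1 clone.

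The share of cells with Ttr differed between plates. Plate 1 had Ttr in 24 of its 90 cells (26.7%, 18.6 to 36.6%), plate 2 in 35 of 80 (43.8%, 33.4 to 54.7%), and plate 3 in 9 of 77 (11.7%, 6.27 to 20.7%). The intervals of plates 2 and 3 do not overlap, but they treat cells of a clone as independent. By clone (at least 2 kept cells), Ttr was in 10 of 20, 13 of 21 and 4 of 21 on plates 1 to 3. On plate 3 none of the 40 SN cells, from 16 clones, had a Ttr exon count, while 9 of the 37 N cells did. Were cells independent, this would allow a share of cells with an exon count of up to 7.50%. Cells of a clone are not independent, so the limit is looser than that. Ttr intron counts were present in 3 of those SN cells, 83 in a cell of clone 51, 4 in clone 61 and 1 in clone 53. Those SN cells had a median total exon count of 1123308, and the N cells of that plate 1398210. What a plate shares besides its number is not given in the labels.

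To ask whether Ttr differed between the clone types, the share of cells with Ttr was taken per clone. It was 23.5% ± 36.1 (SD, n = 42 clones, median 0%) in SN clones and 34.4% ± 36.8 (SD, n = 20 clones, median 26.7%) in N clones. Both types ranged from 0% to 100%. The difference of -10.9 percentage points did not pass a two-sided permutation test of clone type within plates (p = 0.241, 100000 resamples). Within plates, SN minus N was 5.78 points (plate 1), -15.3 points (plate 2) and -23.8 points (plate 3). Single clones moved these values, to 24.8 points on plate 1 without clone 17 and to -15.7 points on plate 3 without clone 45. The result rested on what counts as a cell with Ttr. With at least 10 CPM required, the difference was -17.1 points (p = 0.0318), and after thinning it was -17.9 points (p = 0.0408), by the same permutation test. Without clone 17 it was -7.40 points (p = 0.416) and without clone 45 -8.46 points (p = 0.352), both left out after the values were seen.

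**Figure D2:**
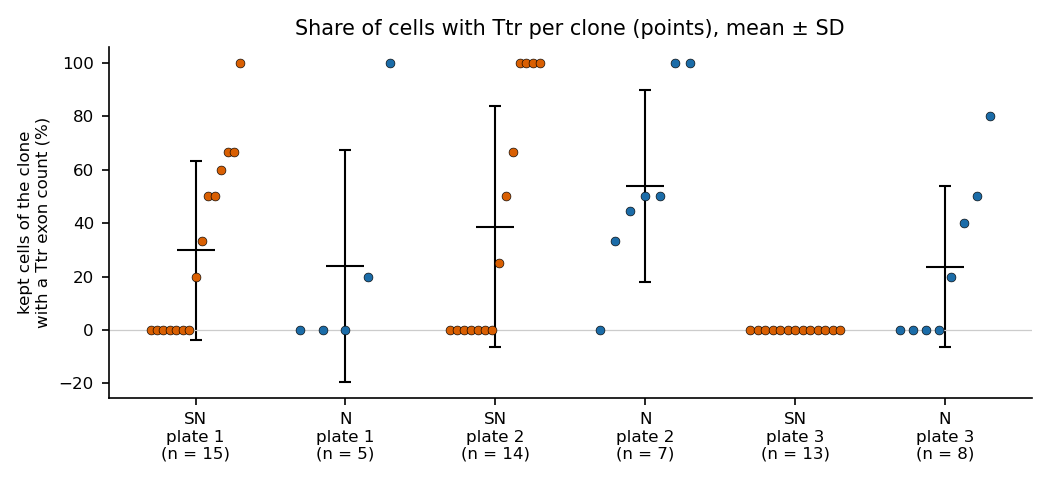
Percentage of kept cells with a Ttr exon count in each clone (points), by clone type and plate, with the mean and SD (bars; the lower bars pass below 0 because many clones are at 0). All 13 SN clones of plate 3 are at 0, and each of the other 5 groups has clones at 0 as well as clones at 80% or above.

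The level of Ttr was compared in exon counts summed per clone, in which fewer cells with Ttr and less Ttr per cell cannot be told apart. Their CPM are scaled with the TMM factors of edgeR, on which scale clone 17 is the highest. The sums of the 42 SN clones ran from 0 to 528 CPM and averaged 50.9 ± 121.9 CPM (SD), with a count in 15 clones. Those of the 20 N clones ran from 0 to 918 CPM and averaged 161.6 ± 296 CPM (SD), with a count in 12. The groups overlap from 0 upwards, and the medians were 0 and 8.74 CPM. In the fit over all genes with plate as a term, the SN to N value of Ttr was log2 -4.44 ± 1.42 (SE), lower in SN, with an adjusted p = 1 by the quasi-likelihood test of edgeR. Its unadjusted p was 0.00260. Over all 11914 genes tested 0% passed the adjusted threshold of 0.05, while 1.74% were lower and 0.327% (39 genes) higher in SN with an unadjusted p under 0.05. Of the same genes, limma-voom called 1.45%. DESeq2 called 2 of the 11513 genes to which it gave a p-value. None of the genes called by either was a member. Without the low-count filter 17.4% of 39336 genes were called, among them 2 members, Ttr (log2 -4.69 ± 1.47, adjusted p = 0.0202 by edgeR) and Folr1 (log2 -5.04 ± 1.40, adjusted p = 0.00838 by edgeR), both lower in SN. The size of the Ttr value depended on the clones of plate 3, where all SN sums are 0, and on the plate term. It was -1.66 ± 1.21 (SE) over the clones of plates 1 and 2 and -1.66 ± 1.03 (SE) with no plate term. Col1a1, Col1a2 and Col3a1, collagen genes of mesenchyme, were lower in SN with unadjusted p under 0.05 as well, out of 7 tested genes of an 8-gene mesenchyme list. They are named after their values were seen, and their part in the Ttr result was not tested.

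Otx2 and Lmx1a, the only other members that passed the filter on low counts, showed no difference beyond their error. Otx2 was counted in 21 of 42 SN and 14 of 20 N sums, at 15.7 ± 29.3 against 10.8 ± 23.4 CPM (SD). Its SN to N value was log2 0.40 ± 1.18 (SE, adjusted p = 1, edgeR quasi-likelihood test). Lmx1a was counted in 20 and 11 sums, at 10.2 ± 22.7 against 6.81 ± 11.9 CPM (SD), with log2 0.39 ± 1.03 (SE, adjusted p = 1, same test). The other 5 members did not pass that filter. With a count in at least 10 sums required instead, Wnt2b (log2 -0.37 ± 0.88, SE) and Wnt8b (log2 0.64 ± 1.30, SE) were tested as well, and neither passed the adjusted threshold (edgeR). Kcne2 was present in 4 SN and 5 N sums, Folr1 in 4 and 5, Wnt8b in 6 and 5, Wnt2b in 10 and 7, and Wnt3a in 1 and 1.

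Of the choroid plexus genes, Otx2 was widespread and Kcne2 and Folr1 were rare. Otx2 ran from 0.176 to 258.1 CPM in its 52 cells (median 15.5 CPM), which came from 36 clones. Only 8 of these clones had it in 2 or more cells, against 18 of 28 clones for Ttr. Clone 39 had Otx2 in 6 of its 9 cells and clone 49 in 4 of 5. The cell with the most Otx2 (clone 36, 258.1 CPM) had no Ttr count. Kcne2 ran from 0.398 to 61.5 CPM in 10 cells of 9 clones (median 14.4 CPM). Its 5 cells above 20 CPM all had Otx2 counts (9.09 to 157.8 CPM), and 2 of them had Ttr. Folr1 ran from 0.926 to 242.3 CPM in 9 cells of 9 clones (median 9.89 CPM). A single cell of clone 26 held 56.6% of all Folr1 exon counts and had no count of any other member. Kcne2 and Folr1 shared 1 cell, from clone 20, which had 58.7 CPM of Otx2 and no Ttr exon count. No cell had exon counts of Ttr, Otx2, Kcne2 and Folr1 together, but that cell of clone 20 had 731 Ttr intron counts, the most of any cell.

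Among the hem genes, Lmx1a was the one found in many cells. It ran from 0.176 to 226.7 CPM in 49 cells of 32 clones (median 7.44 CPM), and 12 clones had it in 2 or more cells. Its highest cells were in clones 12 (226.7 CPM, no Ttr), 24 (216.2 CPM, with 657 CPM of Ttr) and 17 (214.6 CPM, with 3383 CPM of Ttr). Lmx1a thus peaked both with and without Ttr. Otx2 and Lmx1a shared 23 cells. The Wnt ligand genes were sparser. Wnt2b ran from 0.137 to 77.1 CPM in 21 cells (median 2.63 CPM), and 15 of these cells were on plate 3, where the share was 19.5% (12.2 to 29.7%). On plates 1 and 2 it was 3.33% (1.14 to 9.35%) and 3.75% (1.28 to 10.5%). Plate 3 was the plate with the fewest Ttr cells. Wnt8b ran from 0.167 to 789 CPM in 14 cells of 12 clones, and its highest cell, in clone 21, had no count of any other member. Wnt3a was counted at 19.6 CPM in a cell of clone 38, which also had Ttr (366 CPM), Otx2, Lmx1a and Folr1, and at 7.50 CPM in a cell of clone 49, which had Otx2, Lmx1a and Folr1. Wnt2b and Lmx1a shared 3 cells, Wnt8b and Lmx1a 4, and Wnt8b and Wnt2b 3.

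Intron counts gave another picture for the hem members than for the choroid plexus members. Wnt8b had intron counts in 74.5% of cells, 170 of them with no exon count, and Lmx1a in 64.4% of cells, 120 of them with no exon count. Wnt3a had them in 63 cells, 61 with no exon count, and Wnt2b in 47, 32 with none. In cells without an exon count the median intron count was 3 for Wnt8b, 3 for Lmx1a, 1 for Wnt3a and 16.5 for Wnt2b. Ttr, Otx2, Kcne2 and Folr1 had intron counts without an exon count in 10, 11, 9 and 6 cells. In the GENCODE M21 annotation of an earlier mouse build, no other gene overlaps Ttr, Kcne2, Wnt8b, Wnt3a or Lmx1a. Otx2 overlaps Otx2os1 and Gm49154, Folr1 overlaps Anapc15 on the other strand, and Wnt2b contains Gm43846. Use of strand in the counting is not stated, so reads of Otx2 and Folr1 cannot be told from those of their antisense partners.

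**Figure D3:**
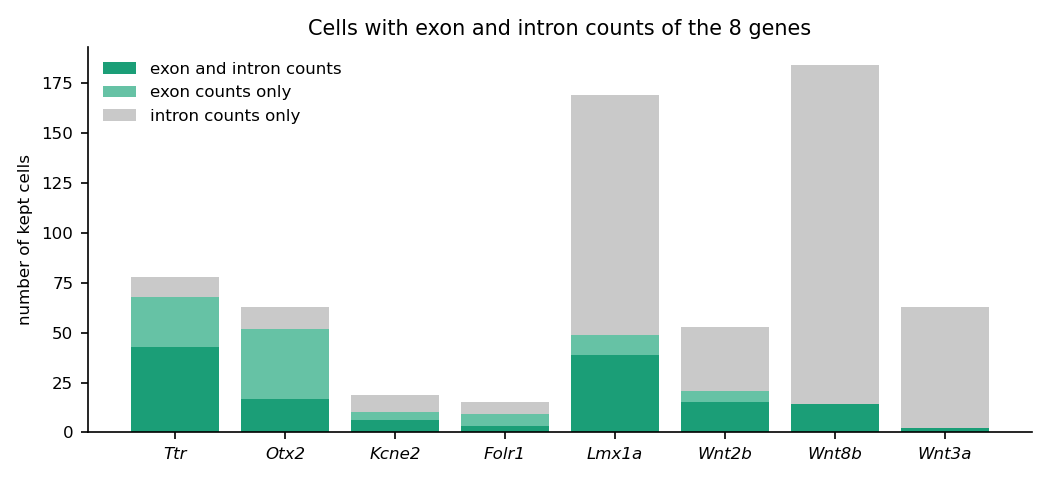
Number of kept cells with both exon and intron counts (dark green), exon counts only (light green) and intron counts only (grey) of each of the 8 genes. Intron counts alone make up 170 of the Wnt8b cells and 120 of the Lmx1a cells but 10 of the Ttr cells.

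Without thinning, Otx2 and Lmx1a were counted more often in cells with Ttr than in cells without. Wnt2b and Wnt8b were counted less often, with intervals that overlap. Since cells were split by a measured value, these shares are a description and carry no test. Of the 68 cells with Ttr, 28 had Otx2 (41.2%, 30.3 to 53.0%), against 24 of the cells without Ttr (13.4%, 9.18 to 19.2%). Lmx1a was counted in 24 of the 68 (35.3%, 25.0 to 47.2%) and in 25 of the cells without (14.0%, 9.64 to 19.8%). Neither pair of intervals overlaps, though all these intervals treat cells of a clone as independent. Kcne2 was counted in 4 (5.88%) and 6 cells (3.35%), and Folr1 in 5 (7.35%) and 4 (2.23%), with overlapping intervals. Wnt2b was counted in 3 cells with Ttr (4.41%) and 18 without (10.1%), Wnt8b in 3 (4.41%) and 11 (6.15%), and Wnt3a in 1 of each. Only 7 cells had both Ttr and 1 of the 3 Wnt ligands. With intron counts added, each of the 3 Wnt genes was the more frequent in the 78 cells with Ttr. Wnt3a was then present in 31 of them (39.7%, 29.6 to 50.8%) and in 32 of the others (18.9%, 13.7 to 25.5%), with intervals apart. Wnt8b was present in 84.6% and 69.8%, and Wnt2b in 29.5% and 17.8%, with overlapping intervals. Intron counts were not thinned, so differences in depth were not taken out of these shares. The cells with a Ttr exon count had a median total of 3653001 exon counts, and the others 1365828.

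Cells with Ttr were sequenced more deeply, with a median total exon count of 3653001 against 1365828. After thinning to 100000 counts, Otx2 was counted in 12 of 48 cells with Ttr (25.0%) and in 20 of those without (11.3%) , and Lmx1a in 13 (27.1%) and 13 (7.34%). The intervals then overlapped for Otx2 and not for Lmx1a. Wnt2b stayed lower with Ttr, in 1 cell (2.08%) against 14 without (7.91%). Wnt8b did not, with 2 cells (4.17%) against 6 (3.39%). By plate, Otx2 was counted in 8 of 24 cells with Ttr and 8 of 66 without on plate 1, in 17 of 35 and 7 of 45 on plate 2, and in 3 of 9 and 9 of 68 on plate 3. Lmx1a did not follow Ttr on plate 1, where 6 of 24 cells with Ttr (25.0%) and 17 of 66 without (25.8%) had it. On plate 2 it was counted in 15 of 35 (42.9%) and 2 of 45 (4.44%), and on plate 3 in 3 of 9 and 6 of 68. Leaving out clone 17 or clone 45 moved the Otx2 share in cells with Ttr to 42.4% or 46.7% and the Lmx1a share to 35.6% or 38.3%.

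**Figure D4:**
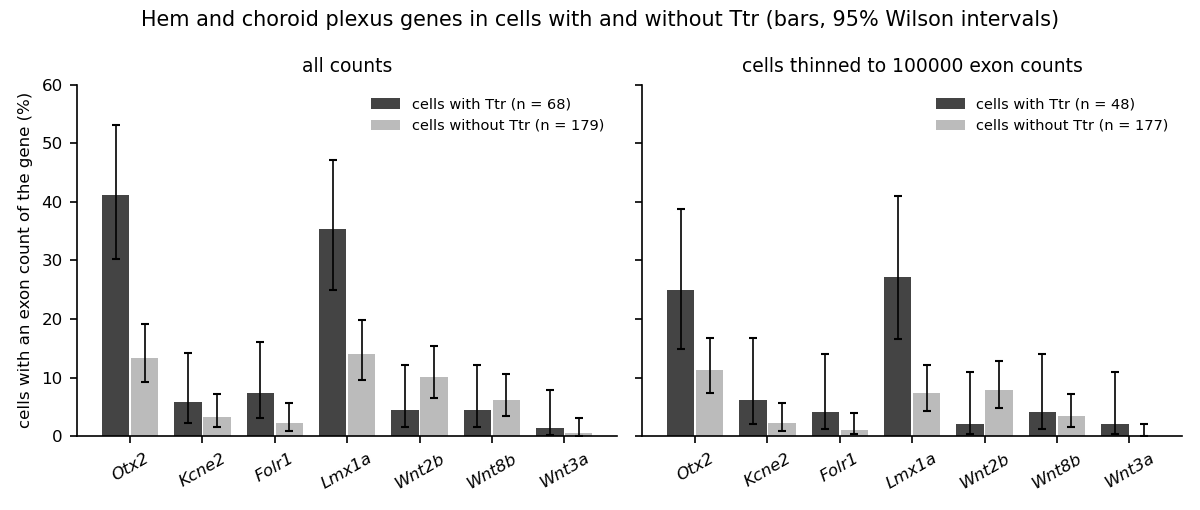
Percentage of cells with an exon count of each gene among cells with Ttr (dark bars) and without Ttr (light bars), with 95% Wilson intervals, from all counts (left) and after thinning every cell to 100000 exon counts (right). Otx2 and Lmx1a stand higher with Ttr in both panels, at 41.2% and 35.3% on the left and 25.0% and 27.1% on the right, while Wnt2b stands lower, at 4.41% and 2.08%.

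Most cells with Ttr nevertheless lacked a full set of the other genes. Of the 68, 26 had no other member, 22 had 1, 15 had 2, 4 had 3 and 1 had 4. At least 1 choroid plexus gene besides Ttr was counted in 31 of the 68 (45.6%, against 29 of the cells without Ttr, 16.2%). At least 1 hem gene was counted in 29 (42.6%, against 46, 25.7%). Both kinds were counted in 18 of the 68 (26.5%) and in 18 of the others (10.1%). Cells with much Ttr were no exception. Of the 40 cells at 100 CPM or more, 16 had no other member, 14 had Otx2, 13 had Lmx1a and 6 had Kcne2 or Folr1. By clone, 25 of the 27 clones with Ttr and at least 2 kept cells had another member in some cell, Otx2 in 19 and Lmx1a in 17. Of the 35 clones without Ttr, 26 had another member and 9 had none.

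**Figure D5:**
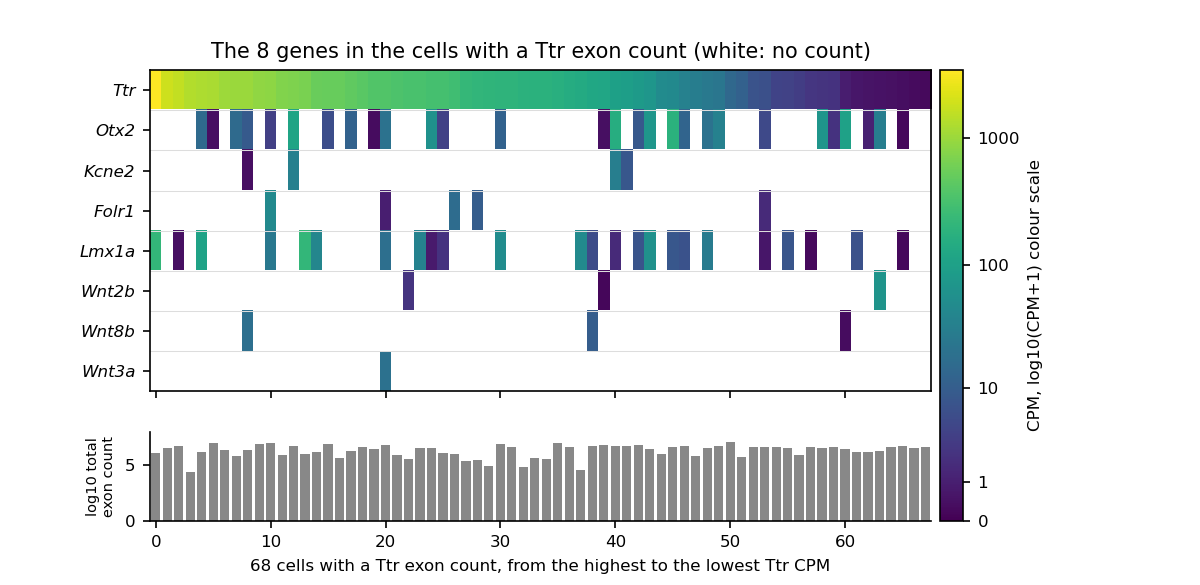
Level of the 8 genes (rows, CPM on a log10(CPM+1) colour scale, white for no count) in the 68 cells with Ttr (columns, from the highest to the lowest Ttr), with log10 of the total exon count of each cell below. Otx2 and Lmx1a counts are scattered over the whole Ttr range, and 26 columns hold no gene but Ttr.

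As a level across cells, Ttr ran only weakly with the other genes. Pearson's r of log2(CPM+1) over all kept cells, which share depth and clones, was 0.24 with Lmx1a, 0.17 with Otx2, 0.11 with Folr1 and 0.066 with Kcne2. It was -0.11 with Wnt2b and -0.039 with Wnt8b. For comparison, r was 0.15 with the log2 total exon count, and 14956 genes counted in at least 10% of cells had a median r of 0.062 with Ttr and a 99th percentile of 0.25. Over the 62 clone sums r was 0.28 with Folr1, 0.26 with Lmx1a and 0.16 with Otx2. The genes with the highest r to Ttr over cells were B2m (0.36), a component of MHC class I, the ribosomal protein pseudogene Rps27a-ps2 (0.35), the cell cycle inhibitor gene Cdkn1a (0.35), Gm2830 (0.34) and Rpl13-ps6 (0.33). Over clone sums they were Gm4987 (0.64), Gm12726 (0.58), Snhg8 (0.54), Gm13436 (0.53) and Hebp1 (0.53). Values of pseudogenes are uncertain, since reads can be split between near-identical copies. None of these genes is on the choroid plexus or hem list. Otx2 ran most closely with Ntn1 (0.44), Per3 (0.41) and Ebf1 (0.41), and Lmx1a with Gm15516 (0.36), Gm8545 (0.35) and Nrn1 (0.32), over the same cells.

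Further genes of the choroid plexus and hem were read from lists of their known markers. Of 23 other choroid plexus genes all were counted in some cell, in a median of 11.3% of cells, the most in Atp1b1 (76.1% of cells), Igfbp2 (61.1%) and Slc12a2 (52.6%), which are not limited to that tissue. The water channel gene Aqp1 was counted in 7 cells, the tight junction genes Cldn1, Cldn2 and Cldn3 in 8, 3 and 2, and the chloride channel gene Clic6 in 6. Multiciliated epithelium, to which choroid plexus cells belong, was represented by Rfx3 in 53.8% of cells, Foxj1 in 15.0% and Ccdc40 in 13.8%. Mcidas and Gmnc, the inducers of multiciliation, were counted in 4 cells and 1 cell and Deup1 in none, although 29 cells had Deup1 intron counts. Of 15 other hem genes the most frequent were Zic1 (46.2% of cells), Rspo3 (36.4%) and Wnt5a (33.6%). Of 16 other Wnt ligands, Wnt7b was counted in 50.6% of cells and Wnt7a in 25.5%, and Wnt8a in none. Of 12 Wnt target genes, Axin2 was counted in 47.0% of cells, Lef1 in 38.9% and Apcdd1 in 35.2%. In the SN to N comparison 12 of 27 choroid plexus genes, 9 of 19 hem genes, 4 of 19 Wnt ligands and 6 of 12 Wnt targets could be tested, and none passed the adjusted threshold, as for all genes (0%). Their median log2 values were -1.12, -0.24, -0.08 and 0.22, beside -0.11 over all genes.

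Genes of some other cell types moved with Ttr too. In cells thinned to 100000 exon counts (64 of which had a Ttr count before thinning), an average of 2.91 of the 15 other hem genes was counted with Ttr and 1.53 without. For the 23 other choroid plexus genes the averages were 3.81 and 2.41. They were 2.47 and 0.814 for the 8 mesenchyme genes, and 4.17 and 2.11 for 10 genes of Cajal-Retzius cells, early neurons that arise in part from the hem. For all genes they were 5308 and 4199. The excitatory neuron list averaged 6.27 and 5.93, the radial glia list 5.55 and 4.66, and the dorsal telencephalon list 4.02 and 3.37. The retina and pigment epithelium list was lower with Ttr (0.313 and 0.366). The summed level of the mesenchyme list ran from 0 to 2577 CPM with Ttr (median 104.5 CPM) and from 0 to 2280 CPM without (median 3.73 CPM). All 8 of its genes were counted, Col3a1 in 45 of 68 cells with Ttr (66.2%) and 46 without (25.7%). The mesenchyme difference held on each plate. It was 2.17 against 0.836 genes on plate 1, 2.83 against 1.07 on plate 2 and 1.50 against 0.589 on plate 3. The other choroid plexus genes averaged 3.70 against 2.43 on plate 1, 4.03 against 2.09 on plate 2 and 3.00 against 2.64 on plate 3. All genes averaged 5229 against 3835 on plate 1, 5260 against 3920 on plate 2 and 5887 against 4814 on plate 3. The part of genes of other cell types in the co-occurrence of Ttr with Otx2 and Lmx1a was not tested.

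Of 13 genes of visceral endoderm and liver, tissues that also make Ttr, 0.422 were counted per thinned cell with Ttr and 0.112 without. Their summed level ran from 0 to 443 CPM with Ttr and from 0 to 114.6 CPM without, with a median of 0 in both. Afp was counted in 3 cells, all with Ttr, in clones 29 (161.99 CPM, with 528 CPM of Ttr), 37 (283.7 CPM, with 0.651 CPM of Ttr) and 27 (4.79 CPM, with 0.899 CPM of Ttr). Alb was counted in 1 cell. The list's genes were counted in a median of 1.21% of cells, most often Rbp4 (20 cells), Amn (18) and Apom (11). Before thinning, Rbp4 was counted in 16.2% of cells with Ttr and 5.03% without, Amn in 11.8% and 5.59%, and Apom in 8.82% and 2.79%. Cubn went the other way (2.94% and 5.03%), and Hnf4a and Serpina1a were counted only in cells without Ttr. In the 40 cells with Ttr at 100 CPM or more, Afp and Apoa1 were each counted in 1. The other genes of this list were not looked at in those 40 cells alone. The neuronal gene Stmn2 was counted in 39 of those 40 cells (median 3655 CPM) and the radial glia gene Fabp7 also in 39 (median 1675 CPM). Over all kept cells the shares were 96.8% (median 2517 CPM) and 95.5% (median 1412 CPM). Having counts of these genes therefore does not set the 40 cells apart.

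Otx2 and Lmx1a also mark other regions, Otx2 the retina and its pigment epithelium and both genes the midbrain. The 12 genes of the retina and pigment epithelium were counted in a median of 3.04% of cells, most often Dct (38.9%), Rlbp1 (20.6%) and Mitf (10.1%), while Crx was counted in 2 cells and Rax and Tyr in none. The 8 midbrain genes were counted in a median of 5.06% of cells, most often Nr4a2 (71.3%), Barhl1 (14.2%) and En1 (9.31%). Genes of the dorsal telencephalon were far more frequent, with a median of 55.9% of cells over 7 genes, among them Nr2f1 (85.8%) and Lhx2 (78.5%). The excitatory neuron list had a median of 85.2% (Stmn2 96.8%, Tubb3 96.4% and Dcx 95.1%) and the radial glia list 68.8% (Fabp7 95.5%, Vim 93.1% and Ptprz1 87.4%). The Cajal-Retzius list had a median of 33.0% (Reln 62.8%, Ndnf 43.7% and Calb2 36.8%) and the mesenchyme list 24.1% (Col3a1 36.8%, Col1a1 30.0% and Lum 26.3%).

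In MADM, recombination in a dividing cell can leave a green and a red daughter lineage in the same clone, and 45 clones had kept cells of both colours. Ttr was counted in both colours in 9 of these clones, in green cells only in 4, in red cells only in 6 and in neither in 26. In sums per clone and colour, Ttr averaged 90.9 ± 254.8 CPM (SD) in green and 90.1 ± 248.6 CPM in red, and was higher in green in 11 clones and in red in 8. Otx2 averaged 6.29 ± 19.7 and 12.1 ± 34.6 CPM and Lmx1a 11.4 ± 29.7 and 4.19 ± 11.1 CPM (SD). None of the 8 genes passed the low-count filter of that comparison, in which 0% of 7437 genes passed the adjusted threshold by the quasi-likelihood test of edgeR. With an unadjusted p under 0.05, 1.29% (96 genes) were higher in green and 0.35% (26 genes) higher in red. DESeq2 called 3.83% of these genes, limma-voom 1 gene, and edgeR without the filter 0.00264% of 37918 genes. With the filter set to a count in at least 10 sums, Ttr, Otx2, Wnt2b and Lmx1a were tested. Green minus red was then log2 0.62 ± 1.11 for Ttr, -0.73 ± 1.24 for Otx2, -0.10 ± 2.00 for Wnt2b and 1.44 ± 1.11 for Lmx1a (SE). Each had an adjusted p = 1 by the same test, and each value was within 2 standard errors of 0.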

How the data were processed

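The authors deposited 2 tables of counts, exon counts and intron counts per gene and cell, which were used as deposited. Per the submitters' processing notes, STAR 2.7.9a, R 4.4.0 and build GRCm39 were used. The counting tool, annotation, strand setting and use of molecular identifiers are not given in the sources used here. Symbols came from a table of gene IDs (52083 of 55359 matched). Exon counts were summed per clone (at least 2 kept cells, plate as a term). For the colours they were summed within each colour of a clone, and the clone entered the fit as a block. They were tested with edgeR 4.0.16 (TMM, filterByExpr, quasi-likelihood test, Benjamini-Hochberg over all genes tested, threshold 0.05). Standard errors are log2 values divided by the root of the F statistic. Clone 45, on 2 plates, was put on plate 3. DESeq2 1.42.0, limma 3.58.1 (voom), other filters, scalings and minimums were tried. On simulated counts, 31% (SN to N) and 16% (green to red) of genes with a made change of log2 2 were called, and 78% and 87% with a change of log2 4. The highest correlation between 2 cells was 0.888, so none was taken as a copy. The members, gene lists and tests were chosen with earlier results of these data known. The rule named the 8 members, the 5 genes of highest r with Ttr over cells and over clone sums, the 3 of highest r with Otx2 and Lmx1a, and the 3 genes of each list counted in the most cells. A gene that this rule also names is not reported here. Genes named beyond it, such as Aqp1, Afp and the collagens, were chosen after their values were seen.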

Additional observations from a re-analysis of the deposited data

Results flagged for a closer look

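Of the 3 cells with no clone label, all on plate 2, 1 had Ttr at 22.1 CPM among 5976683 exon counts in all and no count of the other 7 genes. It entered no comparison, and the other 2 unlabelled cells had no count of any of the 8 genes. Among the 5 N clones of plate 1, clone 17 stood apart from the others with Ttr in 100% of its cells, since the next clone had 20.0% and the other 3 had 0%. The limit used for such a gap is one that chance passes in about 1 of 20 groups of normally distributed values, which these shares, with ties at 0%, are not. In all, 3 groups were looked at.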

How the results depend on the processing

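In the comparison of SN with N clones, no gene was called with DESeq2 size factors in edgeR, with no plate term, with 1-cell clones added, or without clone 25, the clone with the most Ttr per total exon count. The same held without clone 17, without clone 45 and over plates 1 and 2, 3 alternatives chosen after seeing the data. Cells of at least 2000 genes gave 0.0169% of tested genes, DESeq2 0.0174%, limma-voom 1.45%, a count in at least 10 sums 1.87% and no filter 17.4%. For green against red, DESeq2 gave 3.83%, DESeq2 size factors and limma-voom 0.0134% each, and no filter 0.00264%, while the other alternatives gave 0%. Leaving out clone 25 changes nothing there, since its kept cells are of 1 colour. The causes were not tested, except that the filters change how many genes are tested. The median log2 value of all genes was -0.11 with TMM and 0.00049 with DESeq2 size factors.

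The log2 value of Ttr was negative (lower in SN) in each alternative fit, from -5.91 under DESeq2 to -1.66 with no plate term or over plates 1 and 2, and its adjusted p passed 0.05 only with no filter. The value of Otx2 turned from log2 0.40 to -0.15 under limma-voom, with its error spanning 0 in both fits. The SN minus N share of cells with Ttr passed the test with at least 10 CPM (-17.1 points, p = 0.0318, permutation test) and after thinning (-17.9 points, p = 0.0408), and its p was 0.0564 to 0.416 under the other alternatives. The share of Ttr cells with another of the 8 genes was 61.8%, 40.4% at 10 CPM, 47.9% after thinning and 92.3% with intron counts added. The share of cells with any of the 8 genes was 50.6%, 38.1% at 10 CPM and 41.8% after thinning. No paired analysis was possible because, for SN against N, replicate numbers only name cells in accession order within a clone type, and each clone has 1 type. Green and red were paired by clone. Depth limits the rare genes most, since a gene at a few CPM can be missed in the shallowest cells, whose totals start at 6171 exon counts.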
